A study of Mus musculus with 14 samples.

Results

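Expression of 10 genes of the Bcl2 family of apoptosis regulators was examined in regulatory T cells (Tregs, the Foxp3-expressing CD4 lineage that restrains immune responses) sorted from mice. The members were chosen by symbol, each as the transcript cluster whose first gene symbol was the member's, and all 10 were found among the 22203 transcript clusters with a gene symbol on the Clariom S mouse array. Each had 1 cluster, and the main fit applied no filter on low signal. Of these, 3 are anti-apoptotic (Bcl2, Bcl2l1 and Mcl1), Bax and Bak1 form pores, and 5 are BH3-only genes (Bcl2l11, Bbc3, Pmaip1, Bid and Bad), which share a single short domain with the rest of the family.

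The cells came from mixed bone marrow chimeras. CD45.2+ marrow from Foxp3Cre Atg14+/fl donors (controls, which carry the Cre and 1 floxed Atg14 allele) or from Foxp3Cre Atg14fl/fl donors (KO) was mixed in equal parts with CD45.1+ wild-type marrow and given to sublethally irradiated Rag1-/- hosts, which make no T or B cells of their own, and left to reconstitute for 6 to 8 weeks. The labels do not give the age of donors or hosts. Central Tregs (cTregs, CD44 low) and effector Tregs (eTregs, CD44 high) were sorted by the Foxp3-YFP reporter from lymphoid tissue, giving 4 control cTreg, 4 control eTreg, 3 KO cTreg and 3 KO eTreg arrays. Foxp3 drives the Cre, so the design deletes Atg14 in cells that express Foxp3. The study's methods add that some experiments used Foxp3Cre Atg14fl/fl mice with an Atg14+/- or Atg14-/- allele, without notable differences in the reported phenotypes. The labels do not say whether the donors here were among them. Atg14 is the subunit that directs the lipid kinase Vps34 to autophagosome formation, and the comparisons ask how survival and death genes differ between the Treg subsets and with loss of Atg14.

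Bcl2 family proteins decide whether the outer mitochondrial membrane stays closed. Bax and Bak1 open it and release cytochrome c, which starts the caspase cascade, while Bcl2, Bcl2l1 (Bcl-xL) and Mcl1 hold Bax, Bak1 and the BH3-only proteins in check. The BH3-only proteins report stress or loss of growth factors, and in Tregs the balance of Bcl2l11 (Bim) against Mcl1 is known to set lifespan.

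Values are log2 signals, so a difference of 1 is a doubling, and differences were tested with limma across all 22203 clusters. A call means a Benjamini-Hochberg adjusted P below 0.05. The median signal per array ran from 8.77 to 8.90 and the medians of the array's background probe sets from 6.00 to 6.30, while the members' group means lay between 8.68 and 12.85. The log2 difference of Foxp3 between the sorted subsets was 0.02 in controls. Cd44, the gene of a surface protein used in the sort, was 1.61 higher in control eTregs, the direction of the sort. The Atg14 cluster was not lower but somewhat higher in the arrays labelled KO. The difference was 0.35 in cTregs and 0.32 in eTregs (limma unadjusted P = 0.0213 and 0.0323), and neither was called. The cluster read 9.24, 9.33 and 9.29 in KO cTregs against 9.26, 8.96, 8.64 and 8.89 in control cTregs, and 9.15, 9.004 and 9.32 in KO eTregs against 8.92, 9.01, 8.77 and 8.64 in control eTregs. Which part of the transcript its probes read was not analysed here, so this signal does not check the labels, and KO below means the arrays labelled KO. Marker genes of monocytes and macrophages differed between arrays of 1 group. The mean log2 signal of 14 such genes, none of them at background, was 7.93 to 8.15 in control cTregs, 8.18 to 8.32 in KO cTregs and 8.79 to 9.20 in control eTregs, but 8.50, 10.53 and 10.50 in KO eTreg replicates 1, 2 and 3. Results with KO eTregs are therefore also given without replicates 2 and 3 where that changes a call, the direction or the value by over 1.5 times. Both subsets of a genotype came from the same chimeras. In an alternative fit the replicate number was a block, which is given where it changes a call. Between subsets, equal numbers within a genotype were taken as 1 mouse. For KO minus control, the block joined KO and control arrays of equal number, which came from different mice. In RNA from a bulk sort, fewer cells of a type and less RNA per cell cannot be told apart.

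Bcl2l11 and Bcl2, a death gene and a survival gene, were both lower in eTregs than in cTregs in each genotype, and they were the 2 of 10 members called in either subset comparison. Both windows at their RefSeq gene starts (build GRCm38.p6, 250 bases before and 50 bases after the start) are shown because these genes carry the subset difference. Forkhead factors such as Foxo1 and Foxo3 are known to act on Bcl2l11, so the forkhead letters GTAAACA were searched for on both strands. Capitals mark the match, which begins at position -227 relative to the start.
Bcl2l11, chr2:128125788-128126087, plus strand: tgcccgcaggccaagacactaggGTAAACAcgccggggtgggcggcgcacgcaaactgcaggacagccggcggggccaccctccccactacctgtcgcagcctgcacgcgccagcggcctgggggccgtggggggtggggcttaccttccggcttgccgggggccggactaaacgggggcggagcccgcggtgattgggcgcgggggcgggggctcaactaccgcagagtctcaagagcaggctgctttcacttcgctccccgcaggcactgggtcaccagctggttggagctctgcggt
Bcl2, chr1:106714241-106714540, minus strand: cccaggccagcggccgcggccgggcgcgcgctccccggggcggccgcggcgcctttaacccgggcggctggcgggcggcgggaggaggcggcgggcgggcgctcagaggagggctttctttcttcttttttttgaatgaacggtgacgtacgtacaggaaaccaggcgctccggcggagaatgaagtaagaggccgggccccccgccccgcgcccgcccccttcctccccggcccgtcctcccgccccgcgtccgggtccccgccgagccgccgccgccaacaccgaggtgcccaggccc
The Bcl2 window held no match to GTAAACA, nor to TTCNNNGAA (STAT), TGANTCA (AP-1) or CACGTG (E-box). Among all 32851 RefSeq windows of this length, 3.65% held GTAAACA, 8.30% TTCNNNGAA, 7.81% TGANTCA and 7.15% CACGTG. Windows were looked up for 9 members, which had 15 in all. GTAAACA stood in 2 of them, the Bcl2l11 window above and 1 of 3 windows of Bbc3, and CACGTG in 2, those of Bax and another of Bbc3. A match is a description of letters and not a binding site.

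Bcl2l11 encodes Bim, the BH3-only protein that binds every anti-apoptotic member and is known to cull activated and cytokine-deprived T cells. Its log2 signal was 9.68, 9.40, 9.59 and 9.47 in control cTregs and 8.45, 8.86, 8.79 and 8.61 in control eTregs. It was 9.50, 9.66 and 9.83 in KO cTregs and 8.92, 8.76 and 8.44 in KO eTregs. Every one of the 7 eTreg arrays lay below every one of the 7 cTreg arrays. The difference was -0.86 in controls, a 1.81-fold lower signal (SE 0.126, 95% interval -1.13 to -0.59, limma adjusted P = 0.000673). In KO it was -0.95, a 1.93-fold lower signal (SE 0.145, interval -1.26 to -0.64, limma adjusted P = 0.00197). Exact permutation over the arrays gave P = 0.0286 in controls and P = 0.1 in KO, each the smallest that 4 against 4 or 3 against 3 arrays allow.

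Bcl2 encodes the founding survival protein of the family. Control cTregs read 12.83, 12.79, 12.82 and 12.85, and control eTregs 12.19, 12.20, 12.40 and 12.36. KO cTregs read 12.79, 12.84 and 12.92, and KO eTregs 12.65, 12.22 and 11.89. The cTreg arrays were tightly grouped (SD 0.024 in controls and 0.069 in KO), whereas the 3 KO eTreg arrays spread over more than the subset difference itself (SD 0.379). The eTreg arrays still lay below all cTreg arrays in both genotypes. The difference was -0.54 in controls (SE 0.128, interval -0.81 to -0.27, limma adjusted P = 0.0249) and -0.60 in KO (SE 0.147, interval -0.91 to -0.28, limma adjusted P = 0.0437), or 1.45-fold and 1.51-fold lower.

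Of all clusters, 3.58% were called in the subset comparison of controls and 2.43% in that of KO, against 2 of 10 members in each. At the threshold of the study's methods, a log2 change of at least 0.5 with an unadjusted P below 0.05, the same 2 members passed in each, against 4.72% of clusters in controls and 5.81% in KO. The median of the 10 members was -0.03 in controls and 0.04 in KO beside 0.0026 and -0.04 over all clusters. The Bcl2 call was the less stable of the pair. Leaving out 1 array at a time, it was kept in 7 of 14 fits in controls (adjusted P up to 0.0798, lost without any 1 of the control cTreg arrays or without control eTreg replicate 1, 2 or 4) and in 2 of 14 in KO (up to 0.215, kept without KO eTreg replicate 1 or control eTreg replicate 1), while Bcl2l11 was called in 14 of 14 in both (up to 0.00393 and 0.0146). Without KO eTreg replicates 2 and 3, the KO difference was -0.20 for Bcl2 (adjusted P = 0.855) and -0.74 for Bcl2l11 (adjusted P = 0.164), from a fit with 1 KO eTreg array that was assumed to vary like the others. With the replicate number as a block, where 3.14% of clusters were called in KO, the KO call of Bcl2 was lost (adjusted P = 0.0647).

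Both genotypes were also averaged, a comparison added after the data were seen, in which 7 eTreg arrays stood against 7 cTreg arrays and 6.75% of clusters were called (4.76% at the threshold of the methods). In it, 3 members were called. Bcl2l11 was 0.91 lower (interval -1.11 to -0.70, limma adjusted P = 1.79e-05) and Bcl2 0.57 lower (interval -0.77 to -0.36, adjusted P = 0.00147). Pmaip1 was 0.46 higher (interval 0.20 to 0.72, adjusted P = 0.0335). Exact permutation within genotypes gave P = 0.00143 for Bcl2l11 and for Bcl2, the smallest that it allows, and P = 0.01 for Pmaip1. The calls of Bcl2 and Bcl2l11 held in every alternative run in which they were tested, 21 and 20, including the one without KO eTreg replicates 2 and 3, where Bcl2 was 0.37 lower (adjusted P = 0.0302) and Bcl2l11 0.80 lower (adjusted P = 0.000614). That of Pmaip1 held in 11 of 21, with adjusted P up to 0.491, and was lost without any 1 of KO cTreg replicates 1 and 2, KO eTreg replicates 2 and 3, control cTreg replicates 1 and 2, and control eTreg replicates 2 and 3.

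**Figure D1:**
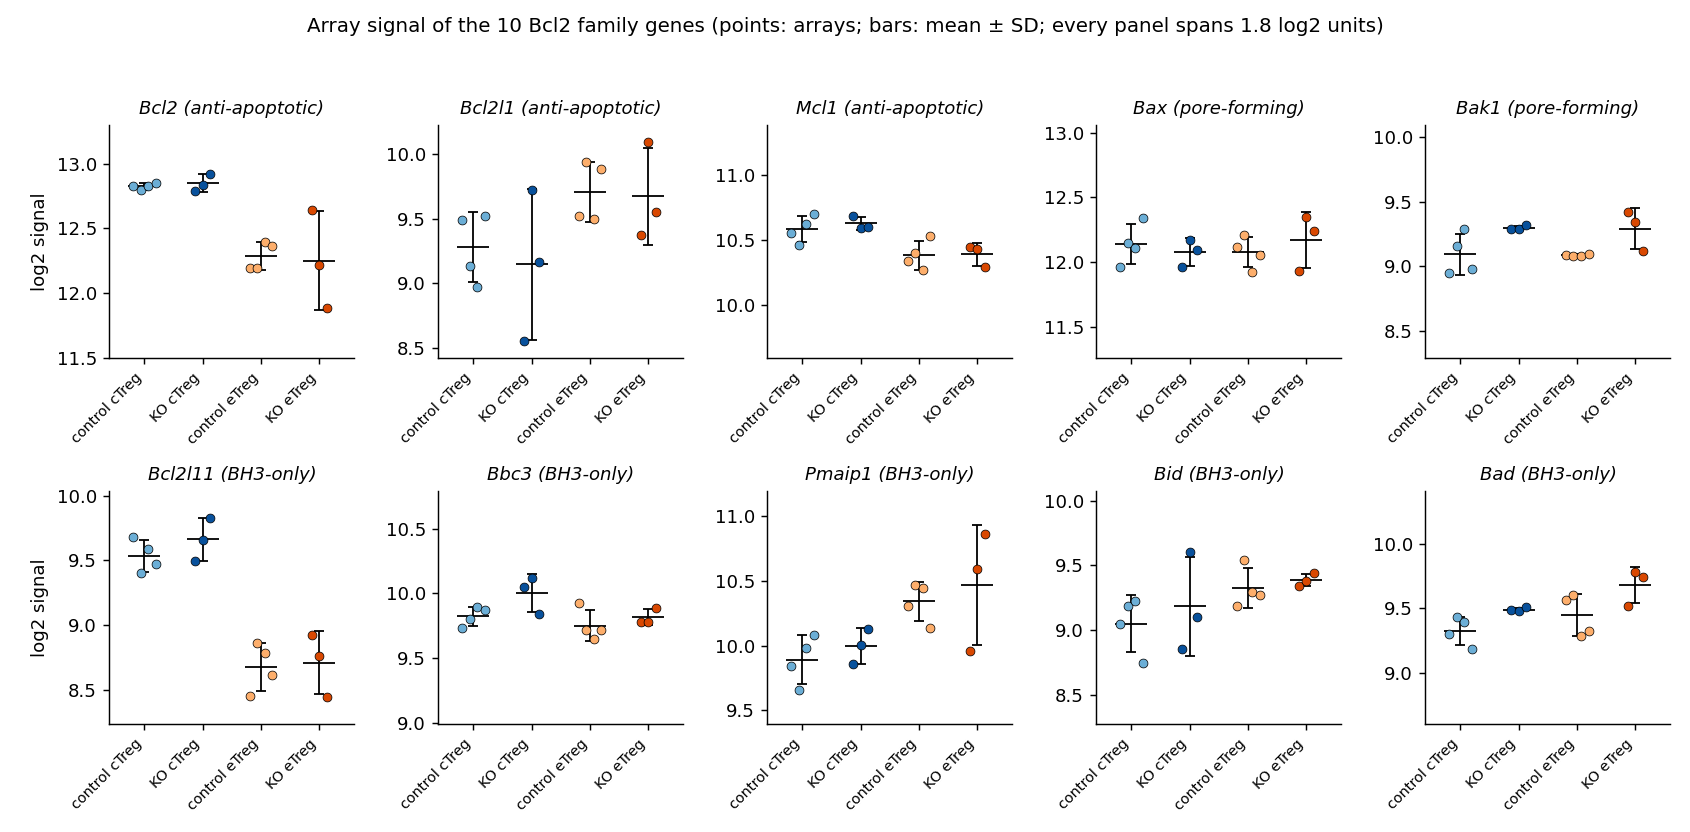
Log2 signal (y axis) of the 10 members in the 4 groups (x axis); points are arrays, the horizontal bar is the group mean and the whiskers 1 SD, and every panel spans the same number of log2 units. Bcl2 and Bcl2l11 were lower in all eTreg arrays than in all cTreg arrays, while the pore-forming genes kept similar levels in both subsets. Bak1 was 0.20 higher in KO than in control arrays of each subset, which was not called.

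Mcl1, the short-lived survival protein on which Tregs are known to depend most, differed less. It read 10.55, 10.46, 10.62 and 10.71 in control cTregs and 10.34, 10.40, 10.27 and 10.53 in control eTregs. KO cTregs read 10.69, 10.60 and 10.60 and KO eTregs 10.45, 10.43 and 10.29. The groups overlapped in controls and did not in KO. The differences of -0.20 (unadjusted P = 0.0449, limma adjusted P = 0.370) and -0.24 (adjusted P = 0.329) did not pass, and neither did the average of -0.22 (interval -0.37 to -0.07, adjusted P = 0.0799). Exact permutation within genotypes gave P = 0.00286 for the Mcl1 average. It was called in 2 of 21 alternatives, the filter at the 60th percentile and centring on array medians (lowest limma adjusted P = 0.0384).

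Bcl2l1, whose product Bcl-xL is induced by T cell receptor and costimulatory signals, had the widest spread of the family. KO cTregs ran from 8.55 to 9.72 and KO eTregs from 9.38 to 10.09, beside 8.97 to 9.52 in control cTregs and 9.50 to 9.94 in control eTregs. The eTreg minus cTreg difference was 0.43 in controls (interval -0.04 to 0.90, limma adjusted P = 0.455) and 0.53 in KO (interval -0.01 to 1.07, adjusted P = 0.384), and 0.48 on average (interval 0.12 to 0.83, adjusted P = 0.120). With the replicate number as a block, in which 7.68% of clusters were called, the average was called (0.48, adjusted P = 0.0175), while neither genotype alone was (adjusted P = 0.122 and 0.105). Its sign was opposite to that of Bcl2 and Mcl1. In the fit without KO eTreg replicates 2 and 3 the KO difference was 0.23 (adjusted P = 0.960).

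Pmaip1 encodes Noxa, a BH3-only protein that binds Mcl1 and marks it for degradation. Control cTregs read 9.84, 9.66, 9.99 and 10.09 and control eTregs 10.31, 10.47, 10.45 and 10.14. KO cTregs read 9.86, 10.01 and 10.13 and KO eTregs 9.96, 10.59 and 10.86. The control groups did not overlap, and the KO groups did, because KO eTreg replicate 1 lay among the cTregs. The difference of 0.45 in controls had an unadjusted P of 0.0136 and an adjusted P of 0.189, and that of 0.47 in KO an adjusted P of 0.255. Single arrays moved these values both ways. Without KO eTreg replicate 1 the KO difference was 0.73 and was called (adjusted P = 0.00748), and without replicates 2 and 3 it was -0.04 and the average 0.20 (adjusted P = 0.491). The control difference was called in 3 of 22 alternatives, those without KO eTreg replicate 1, without replicates 2 and 3, and with only the groups compared (lowest adjusted P = 0.0391).

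The other BH3-only genes were not called between subsets. Bid, which links death receptors to mitochondria once caspase-8 cleaves it, was 0.28 higher in control eTregs (interval -0.04 to 0.59) and 0.20 higher in KO eTregs (interval -0.16 to 0.56). Bad, whose activity is held down by growth factor kinases, was 0.12 and 0.19 higher (limma adjusted P = 0.776 and 0.519). Its KO eTreg arrays, at 9.52 to 9.78, lay above its KO cTreg arrays, at 9.48 to 9.51, but the KO eTreg values alone spanned more than that gap, and the KO difference of Bad was 0.03 without KO eTreg replicates 2 and 3. Bbc3 (Puma), a p53 target, was lower by 0.07 and 0.19 (adjusted P = 0.881 and 0.494).

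Both pore-forming genes stayed close to 0. Bax ran from 11.93 to 12.35 over all 14 arrays, and its eTreg minus cTreg difference was -0.06 in controls (interval -0.31 to 0.18) and 0.09 in KO (interval -0.19 to 0.38). Bak1 differed by -0.01 in each genotype, with intervals of -0.21 to 0.20 and -0.25 to 0.24. The KO differences became -0.15 for Bax and 0.12 for Bak1 without KO eTreg replicates 2 and 3. A subset difference of the size seen for Bcl2l11 lay outside the interval of either gene.

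**Figure D2:**
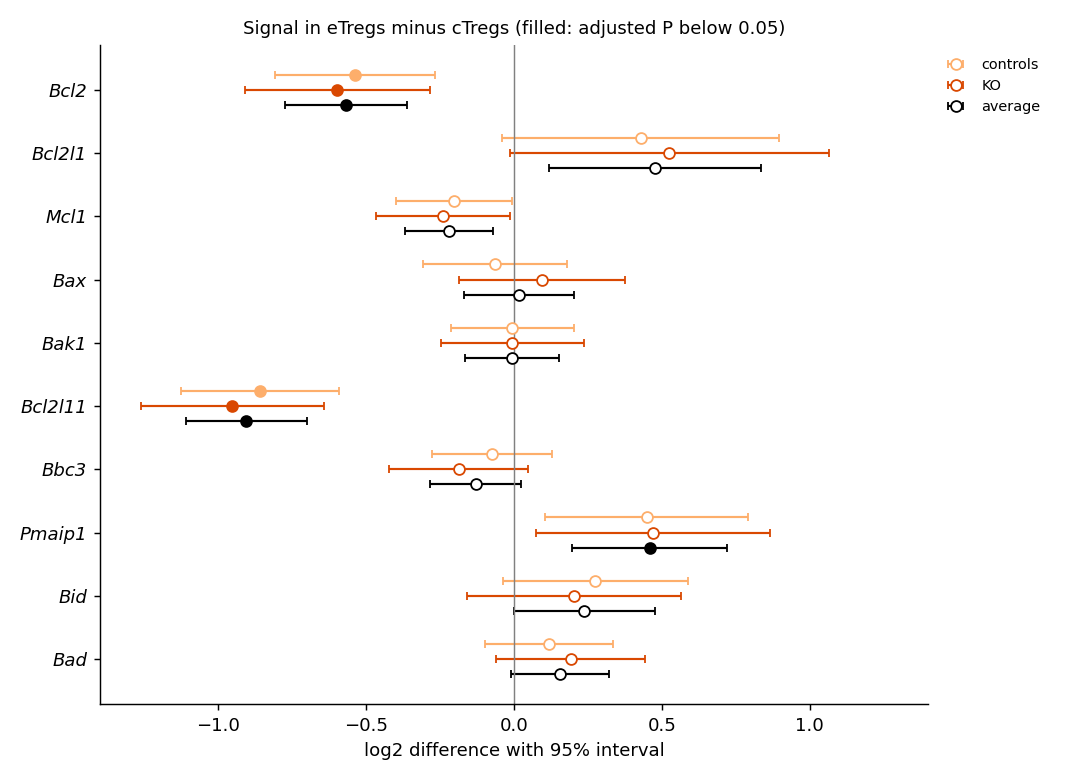
Log2 difference, eTregs minus cTregs, of each member (rows) in controls, in KO and as the average of both, with its 95% interval from limma; filled points have an adjusted P below 0.05. Bcl2 and Bcl2l11 lie left of 0 in all 3 estimates, and Pmaip1 is filled for the average alone.

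The signal of another cell type moved with Bcl2, Bcl2l11 and Pmaip1 among the KO eTreg arrays. KO eTreg replicate 1, with the lowest macrophage marker signal of the 7 eTreg arrays (8.50), also had the highest Bcl2 (12.65), the highest Bcl2l11 (8.92) and the lowest Pmaip1 (9.96) among them. KO eTreg replicate 3 (10.50) had the lowest Bcl2 (11.89), the lowest Bcl2l11 (8.44) and the highest Pmaip1 (10.86) of all 14. KO eTreg replicate 2 (10.53) lay between both, at 12.22, 8.76 and 10.59. In replicate 1, Bcl2 and Bcl2l11 were below every cTreg array and Pmaip1 lay within the range of those arrays. Control eTregs lay above all cTreg arrays in this marker signal too, and 11 dendritic cell markers, none at background, ranged from 8.51 to 8.68 in cTregs, from 8.86 to 8.96 in control eTregs and from 8.91 to 10.02 in KO eTregs. The part of these cells in the subset differences was not tested.

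**Figure D3:**
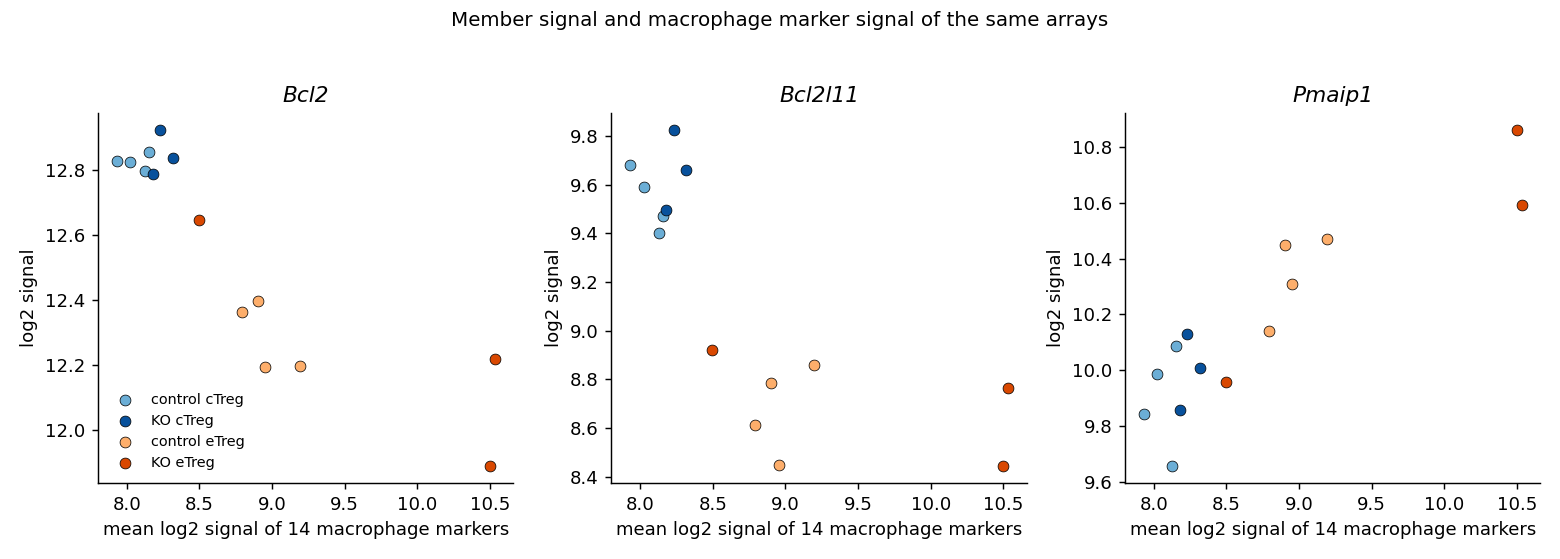
Log2 signal of Bcl2, Bcl2l11 and Pmaip1 (y axes) against the mean log2 signal of 14 macrophage markers (x axis) in the same array; each point is 1 of 14 arrays, coloured by group. Replicates 2 and 3 of KO eTregs stand at the right of each panel, at 10.53 and 10.50, and replicate 1 stands at 8.50, nearer to the cTreg arrays.

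Loss of Atg14 was compared within each subset. None of the 10 members was called in eTregs, where 0.117% of all clusters were, and none in cTregs, where 0.045% were. At the threshold of the study's methods 0 members passed as well, against 2.72% of clusters in eTregs and 0.576% in cTregs. At an unadjusted P below 0.05, 1 member passed in eTregs (Bad) and 0 in cTregs, beside 8.03% and 4.01% of all clusters.

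The RNA signal of the 3 members on which the Bim balance rests differed little. The balance is one of proteins, which these arrays do not measure. By flow cytometry of mixed chimeras, the study reported a higher Bim/Mcl1 protein ratio in Atg14-deficient eTregs, but no higher Bim/Bcl2 ratio. In eTregs the KO minus control difference was 0.03 for Bcl2l11 (interval -0.26 to 0.32), 0.01 for Mcl1 (interval -0.21 to 0.22) and -0.04 for Bcl2 (interval -0.33 to 0.26). In cTregs it was 0.13 for Bcl2l11 (interval -0.16 to 0.41), 0.04 for Mcl1 (interval -0.17 to 0.25) and 0.02 for Bcl2 (interval -0.27 to 0.32). At this number of arrays the intervals reach up to changes of about 1.3-fold in either direction, so they do not show that the levels were equal. Without KO eTreg replicates 2 and 3, the eTreg difference of Bcl2 was 0.36 and that of Bcl2l11 0.25 (adjusted P = 0.493 and 0.887), and that of Mcl1 was 0.07.

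Bcl2l11 was also set against its partners within each array. The log2 signal of Bcl2l11 minus that of Mcl1 was -1.05 ± 0.15 (SD, n = 4) in control cTregs and -1.71 ± 0.23 (SD, n = 4) in control eTregs. In KO it was -0.97 ± 0.21 (SD, n = 3) in cTregs and -1.68 ± 0.16 (SD, n = 3) in eTregs. Different probes respond differently, so only the shift between groups can be read from such a value, and it is a description with no test. The difference fell from cTregs to eTregs in both genotypes and lay close together in KO and control eTregs. Against Bcl2 it was -3.61 ± 0.19 in control eTregs and -3.54 ± 0.16 in KO eTregs, and against Bcl2l1 -1.03 ± 0.23 and -0.96 ± 0.45 (SD, n = 4 and 3). KO eTreg replicate 1 alone read -0.45 against Bcl2l1, above the control eTreg range of -1.27 to -0.71. It read -1.53 against Mcl1 and -3.72 against Bcl2.

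Bak1 and Bad had the largest KO minus control differences in eTregs and in the average of both subsets, while in cTregs Bbc3 (0.18) lay between them. Bak1 read 9.09, 9.08, 9.08 and 9.09 in control eTregs and 9.42, 9.34 and 9.12 in KO eTregs, which did not overlap. In cTregs it read 8.94, 9.16, 9.29 and 8.98 in controls and 9.29, 9.29 and 9.32 in KO, which met at 9.29. The difference was 0.20 in eTregs (interval -0.02 to 0.43, limma adjusted P = 0.672) and 0.20 in cTregs (interval -0.02 to 0.43, adjusted P = 1.00). Exact permutation gave P = 0.0286 in eTregs, the smallest that 4 against 3 arrays allow, and P = 0.0857 in cTregs.

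Bad was 0.24 higher in KO eTregs (interval 0.00 to 0.47, limma unadjusted P = 0.0491, adjusted P = 0.620) and 0.16 higher in KO cTregs (interval -0.07 to 0.40). Its KO cTreg arrays, at 9.48, 9.48 and 9.51, lay above the control cTreg arrays, at 9.30, 9.43, 9.39 and 9.19, while the eTreg groups overlapped. In the fit without KO eTreg replicates 2 and 3 the eTreg difference of Bad was 0.08 (unadjusted P = 0.649) and its average 0.12, and the eTreg difference of Bak1 was 0.33 (unadjusted P = 0.0490, adjusted P = 0.612). Averaged over both subsets, Bak1 was 0.20 higher (interval 0.05 to 0.36, unadjusted P = 0.0151, adjusted P = 0.649) and Bad 0.20 higher (interval 0.03 to 0.37, unadjusted P = 0.0216, adjusted P = 0.707). Exact permutation within subsets gave P = 0.0049 for Bak1 and P = 0.0139 for Bad. These averages count the cTregs and eTregs of a mouse as separate samples, so their P values are too small if both vary together. None of the 10 members was called in this average, where 0.0901% of clusters were called and 0.914% passed the threshold of the methods. The Bak1 and Bad differences, near 1.15-fold, thus did not pass over all clusters.

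**Figure D4:**
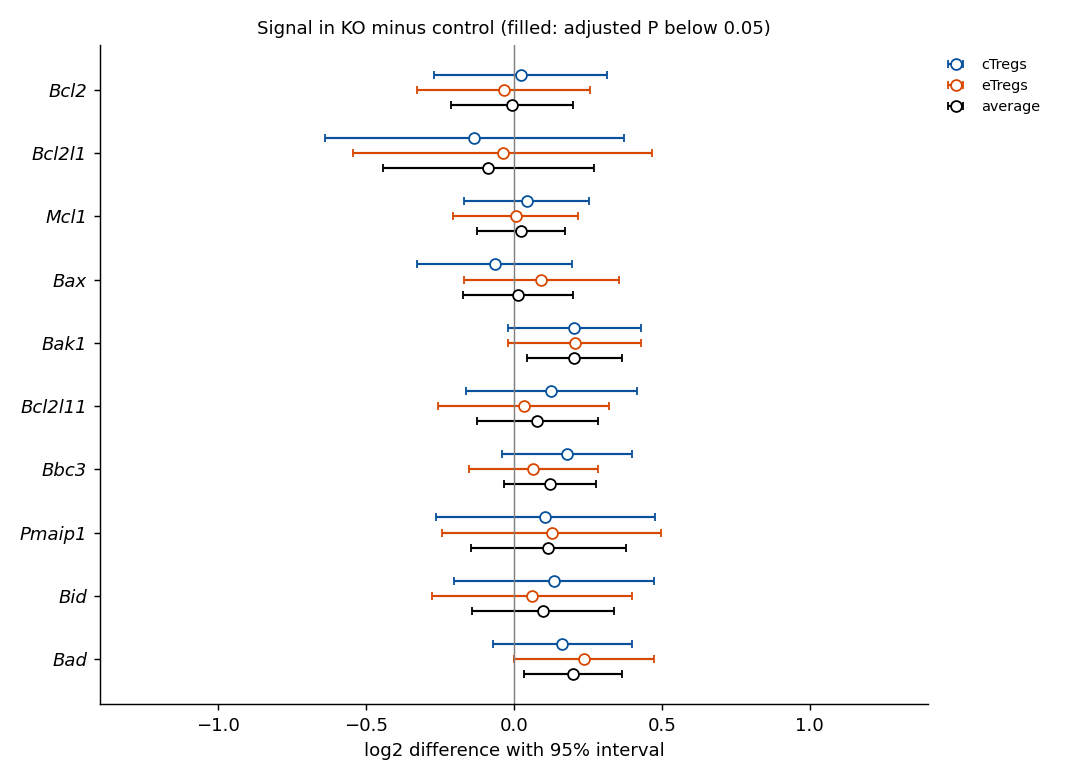
Log2 difference, KO minus control, of each member (rows) in cTregs, in eTregs and as the average of both, with its 95% interval from limma, on the same x axis range as the subset differences; no point is filled, since no adjusted P was below 0.05. Bak1 and Bad lie near 0.2 in both subsets, and Bcl2, Mcl1 and Bcl2l11 near 0.

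All 5 BH3-only genes had a positive KO minus control difference in both subsets, with medians of 0.07 in eTregs and 0.13 in cTregs. Of the 3 anti-apoptotic genes, 1 was positive in eTregs and 2 in cTregs, with medians of -0.04 and 0.02. Over the 10 members, 8 were positive in each subset and the median was 0.06 in eTregs and 0.12 in cTregs, beside -0.02 and 0.02 over all clusters. Of all 22203 clusters, 9809 were positive in eTregs and 12164 in cTregs. The directions of Pmaip1 and Bax in eTregs turned negative without KO eTreg replicates 2 and 3 (-0.38 and -0.15).

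The change of the subset difference with genotype was tested as an interaction. None of the 10 members was called, and 0% of all clusters were. At the threshold of the methods 3.05% of clusters passed and 0 members did. None of the members reached an unadjusted P below 0.05, while 1358 of all clusters did. The largest interaction was that of Bax, 0.16 (interval -0.21 to 0.53), and that of Bcl2l11 was -0.09 (interval -0.50 to 0.32). In the fit without KO eTreg replicates 2 and 3, which leaves 1 KO eTreg array, they were -0.09 and 0.12, and that of Pmaip1 was -0.49. The interaction of Bcl2 was -0.06 with all arrays and 0.34 in that fit.

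Across the 14 arrays Bcl2 and Bcl2l11 varied together (Pearson's r = 0.928, and 0.659 after subtracting group means), and Bcl2 and Pmaip1 moved in opposite directions (r = -0.861 and -0.711). The points share the 4 groups and the marker signal above, so these are descriptions with no test. The clusters with the pattern most like that of Bcl2l11 over the 14 arrays were Cytip (r = 0.973), Casp8 (0.967) and Ugcg (0.960). For Bcl2 they were Foxn3 (0.981), Cd55b (0.969) and Rab3ip (0.962). For Mcl1 the nearest were less close, with Foxs1 (0.855), Triml2 (0.850) and Mafk (0.849).

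Among 16 other Bcl2 family genes, the 3 Bcl2a1 genes were called between control subsets, all higher in eTregs. Bcl2a1 (A1) is an anti-apoptotic member that NF-kappaB induces in activated lymphocytes and myeloid cells. Its mouse copies are known to be near identical. As an example, the 100 bases before and 50 bases after the RefSeq starts of Bcl2a1a and Bcl2a1d (GRCm38.p6) are shown. This stretch was chosen because it lines up without gaps, and Bcl2a1b was not compared. It does not show how alike the copies are elsewhere or which bases the probes read. The windows differ at 2 positions, in capitals, and at 0 in the last 50 bases.
Bcl2a1a, chr9:88956820-88956969, plus strand: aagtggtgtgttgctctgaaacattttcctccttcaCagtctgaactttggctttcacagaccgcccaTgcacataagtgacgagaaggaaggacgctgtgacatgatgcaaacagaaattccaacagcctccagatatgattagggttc
Bcl2a1d, chr9:88731801-88731950, minus strand: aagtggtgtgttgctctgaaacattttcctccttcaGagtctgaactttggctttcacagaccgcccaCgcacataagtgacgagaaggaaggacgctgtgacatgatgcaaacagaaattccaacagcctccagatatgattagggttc
The array may not tell such copies apart, so the 3 clusters are best read as 1 signal whose division among copies is uncertain. In controls the eTreg minus cTreg difference was 0.95 for Bcl2a1a (limma adjusted P = 0.00674), 0.96 for Bcl2a1b (adjusted P = 0.00226) and 1.03 for Bcl2a1d (adjusted P = 0.00556). In KO it was 0.84 (adjusted P = 0.0525), 0.77 (adjusted P = 0.0386) and 0.98 (adjusted P = 0.0296). The KO differences were 0.28, 0.30 and 0.39 without KO eTreg replicates 2 and 3, and none was called. With the replicate number as a block all 3 were called in KO (adjusted P up to 0.0139), Bcl2a1a included (adjusted P = 0.00789). With 1 array left out at a time, the KO call was kept in 4 of 14 fits for Bcl2a1b and in 10 of 14 for Bcl2a1d. Myeloid cells also express Bcl2a1, and the macrophage marker signal was higher in eTreg arrays, as given above. Its part was not tested. None of the 16 genes was called by genotype, where 0.117% of clusters were called in eTregs and 0.045% in cTregs. Bcl2a1a, Bcl2a1b and Bcl2a1d averaged 12.24, 13.24 and 12.83 in KO eTregs and 12.31, 13.38 and 12.89 in control eTregs. Without KO eTreg replicates 2 and 3, KO minus control in eTregs was -0.63, -0.62 and -0.66. The interactions in that fit, with 1 KO eTreg array, were -0.68, -0.66 and -0.64.

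Of the caspases, Casp8, the initiator caspase of death receptors, was called in the average of both genotypes alone, 0.32 lower in eTregs (limma adjusted P = 0.00685), beside values 0.25 lower in controls and 0.39 lower in KO (adjusted P = 0.171 and 0.0570). The average was -0.28 (adjusted P = 0.120) without KO eTreg replicates 2 and 3. It was not called by genotype.

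Of 7 caspase inhibitors and their antagonists, Birc5 (survivin, which also acts in mitosis) was 0.61 higher in control eTregs (limma adjusted P = 0.0299) and 0.54 higher in KO eTregs (adjusted P = 0.133). Its call in controls was kept in 8 of 14 fits with 1 array left out, with adjusted P up to 0.103, and was lost with the replicate number as a block (adjusted P = 0.0813, where 4.07% of clusters were called). The KO difference of Birc5 was 0.13 without KO eTreg replicates 2 and 3. Its average over both genotypes then fell from 0.57, which was called, to 0.37, which was not. Of 9 death receptor genes, Tnfrsf1b (TNFR2, a costimulatory receptor of Tregs without a death domain) was 0.96 higher in control eTregs (adjusted P = 0.000311) and 0.32 higher in KO eTregs (adjusted P = 0.356). The 2 Tnfrsf1b differences themselves differed by -0.64 with an unadjusted P of 0.00503 and an adjusted P of 0.727. In the fit without KO eTreg replicates 2 and 3 the KO difference of Tnfrsf1b was 0.0094, the interaction -0.95 (unadjusted P = 0.000616, adjusted P = 0.258) and KO minus control in eTregs -0.71 (unadjusted P = 0.00140, adjusted P = 0.165). Of 9 transcription factors known to act on Bcl2 family genes, Foxo1 was 0.29 lower in control eTregs (limma adjusted P = 0.114). In KO eTregs it was 0.25 lower (adjusted P = 0.297). It was called in the average of both (0.27 lower, adjusted P = 0.0275), a call kept in 13 of 21 alternatives. With 1 array left out, the call was kept in 7 of 14 fits (adjusted P up to 0.0667). It was lost without KO eTreg replicates 2 and 3, where the average was 0.29 lower. None of 4 cytokine receptors for survival signals, 3 enzymes of Mcl1 turnover or 3 mitochondrial channels was called in any comparison. Between subsets 3.58% of clusters were called in controls, 2.43% in KO and 6.75% in the average, so lists this short may hold none. In all these lists 0 genes were called by genotype, beside 0.117% of clusters in eTregs, 0.045% in cTregs and 0.0901% in the average of both subsets. At such shares an absence of calls says little about these genes.

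**Figure D5:**
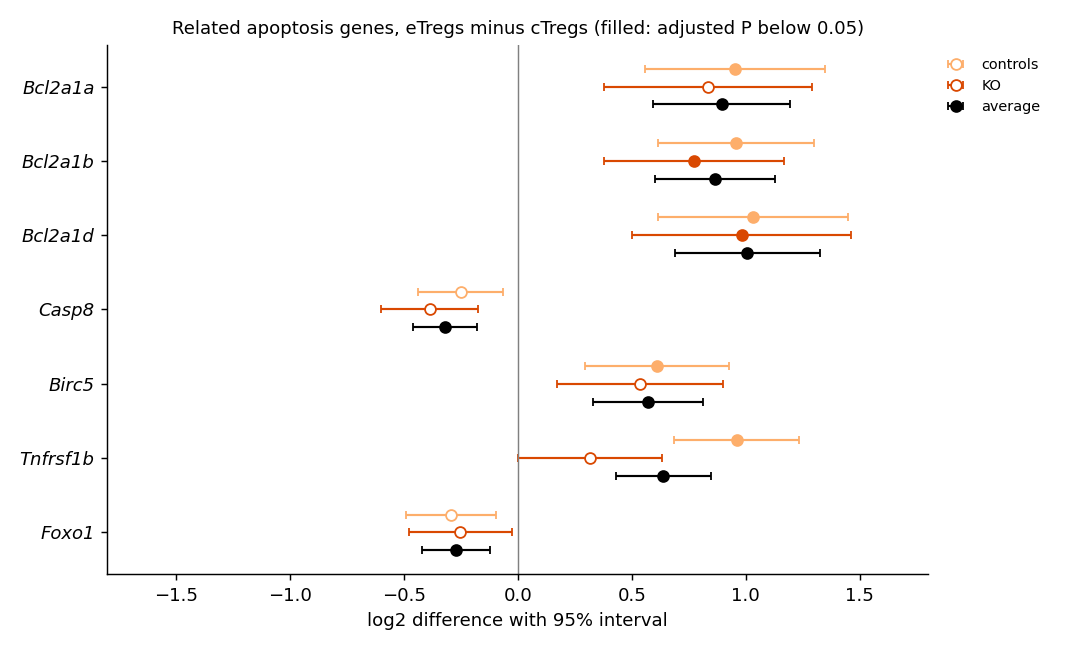
Log2 difference, eTregs minus cTregs, of 7 related genes named in the text (rows) in controls, in KO and as the average of both, with its 95% interval from limma; filled points have an adjusted P below 0.05. The Bcl2a1 genes lie between 0.77 and 1.03, opposite in sign to Casp8 and Foxo1.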

How the data were processed

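Total RNA of 14 sorted samples was labelled with the Whole Transcript Plus kit and hybridised to Clariom S mouse arrays. The authors deposited 1 matrix of log2 signals, made by robust multi-array average (RMA); the submitters' processing notes name Affymetrix Expression Console 1.1, and an annotation build is not given in the sources used here. The spleen is named as tissue in the methods, and spleen with peripheral lymph nodes in the series' design text. From 28846 entries, 6640 control probe sets and 3 without a symbol were left out. R 4.3.3 and limma 3.58.1 fitted 1 mean per group (lmFit, eBayes, 14 arrays, 10 residual degrees of freedom), two-sided, with Benjamini-Hochberg adjustment over 22203 clusters. Exact permutation tests compared single members. RMA shrinks differences of dim probe sets, and the number of arrays limits the precision. The methods sort both subsets from 4 control and 3 KO chimeras, as many as the replicate numbers. The pairing by number was taken from this, though no source states outright that equal numbers are 1 mouse. Over 7 pairs the correlation of deviations from group means ran from 0.044 to 0.303, 5 were over 0.1, and 6 of 7 arrays matched their own number best. On simulated data, 45% of log2 changes of 0.5 and 91% of changes of 1 were recovered in the control subset comparison (22203 genes). The simulation had independent normal noise and 100 changed genes of each size. In the real comparison 3.58% of clusters were called, so recovery there may differ.

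The members and gene lists were chosen with earlier results of these data known. Named beside them were Atg14, at most 4 called genes per list and comparison, 3 nearest patterns for Bcl2, Mcl1 and Bcl2l11, and sort and marker genes that bear on a result. Lists of neutrophil, B cell, erythroid, and CD8 T and NK cell markers gave 1, 1, 0 and 2 called genes of 8, 7, 6 and 7 in the subset average, and 0 by genotype. The macrophage and dendritic cell lists gave 9 of 14 and 4 of 11 in that average, where 6.75% of clusters were called. By genotype, 1 dendritic cell marker was called in eTregs, where 0.117% of clusters were, and 0 macrophage markers. The 7 CD8 T and NK cell markers were all higher in KO than in control eTregs, with a median of 0.42 and none called. Alternatives covered a filter at the 60th percentile, centring of arrays, array weights, trended robust variance, the groups compared alone, a replicate block, and each array left out, also for both averages, which were added after seeing the data. Results for some genes are not reported here. Sequences are from RefSeq.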

Additional observations from a re-analysis of the deposited data

How the results depend on the processing

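Over all 70 differences of the 10 members in 7 comparisons, the alternatives gave 1489 values, of which 1351 kept their direction and their side of the threshold, 33 lost a call, 8 gained 1 and 97 changed sign, of which 0 had been called. The number of members called between subsets was 1 in controls and 1 in KO with the filter at the 60th percentile, which leaves out Bcl2l11, Bak1 and Bid. In KO it was 1 with only the groups compared, 1 with the replicate block and 0 without KO eTreg replicates 2 and 3, an alternative chosen after seeing the data. With 1 array left out at a time it ran from 1 to 3 in controls and in KO, with Pmaip1 the added gene without KO eTreg replicate 1. The causes were not tested, apart from the smaller number of clusters or arrays that some alternatives leave. The replicate block changed no member's call except those of Bcl2 in KO and of Bcl2l1 in the average of both genotypes. For KO minus control, it joined different mice of equal number. No gene had several rows, so another row per symbol could not be tried.

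The values that changed sign belonged to differences that were not called, and those named in the report are given here. Centring on the 75th percentile gave 0.0009 for Bak1 between control subsets and -0.014 for Mcl1 in KO minus control eTregs. Array weights gave -0.054 for Mcl1 and -0.096 for Bcl2l11 in KO minus control eTregs and 0.078 for Bcl2l1 in KO minus control cTregs. The replicate block, which here joined KO and control mice of equal number, gave 0.031 for Bcl2l1 in KO minus control eTregs. Without KO eTreg replicates 2 and 3, the KO subset difference was -0.15 for Bax, 0.12 for Bak1 and -0.041 for Pmaip1. KO minus control in eTregs was then 0.36 for Bcl2, -0.15 for Bax and -0.38 for Pmaip1. The interaction was then -0.085 for Bax, 0.12 for Bcl2l11 and 0.34 for Bcl2.

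With 1 array left out at a time, the ranges that crossed 0 were, between control subsets, -0.12 to 0.0038 for Bax and -0.055 to 0.059 for Bak1, and between KO subsets -0.067 to 0.082 for Bak1. For KO minus control in eTregs they were -0.23 to 0.15 for Bcl2, -0.25 to 0.11 for Bcl2l1, -0.033 to 0.055 for Mcl1, -0.074 to 0.17 for Bcl2l11 and -0.069 to 0.38 for Pmaip1. In cTregs they were -0.014 to 0.054 for Bcl2, -0.42 to 0.16 for Bcl2l1, -0.12 to 0.0019 for Bax and -0.073 to 0.30 for Bid. For the interaction they were -0.20 to 0.040 for Bcl2l11 and -0.26 to 0.12 for Bcl2.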
